A study of Homo sapiens with 12 samples.

Results

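Major histocompatibility complex (MHC) class II genes and the invariant chain were followed through 12 tumours of a human breast cancer line grown in mice. The genes were taken by symbol from the count table, and 8 of its 25369 genes made up the set: CD74, CIITA, HLA-DRA, HLA-DRB1, HLA-DPA1, HLA-DPB1, HLA-DMA and HLA-DMB. All 8 had a row. Of these, 7 passed the filter on low counts, as did 12514 genes of the whole table, and CIITA did not.

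The tumours grew from cells of MDA-MB-231, a long-established human line that stands for triple-negative disease, injected in 50 µl of Matrigel into the mammary fat pad of mice, with 10 mice in each group. Injections into the peritoneum, on 5 days a week, began at a tumour volume of 100 mm3. The combination group received 1 mg/kg/day of SB202190, which blocks p38 MAP kinases, and 10 mg/kg/day of EPZ-6438, which blocks EZH2, the enzyme that methylates histone H3. The dose of each agent within the combination was read as that given for the agent alone. The labels also spell the code of that compound as EPZ-6428. The p38i group received SB202190 alone, and the EZH2i group received EPZ-6438 alone. Controls were injected with vehicle alone (4% DMSO, 30% PEG 300 and 5% Tween 80). RNA was sequenced from 3 tumours in each of the 4 groups. The mouse strain, the length of treatment and the time of collection were not given in the sources used here, and all tumours came from 1 cell line. The labels number tumours (control 1-1, for example) without saying that each came from its own mouse, so p-values measure the spread between these libraries.

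MHC class II molecules are pairs of an alpha and a beta chain that show peptides from endocytosed proteins to CD4+ T cells. HLA-DRA and HLA-DRB1 encode the chains of HLA-DR, and HLA-DPA1 and HLA-DPB1 those of HLA-DP. CD74, the invariant chain, holds the peptide groove closed and guides new class II molecules to the endosome, where HLA-DM, encoded by HLA-DMA and HLA-DMB, exchanges the remaining fragment of CD74 for peptides. CIITA is the coactivator that switches these genes on together; it binds no DNA itself but is held at their promoters by the RFX complex, CREB and NF-Y, which occupy the conserved X and Y boxes. Dendritic cells, macrophages and B cells express class II constantly, and many other cells, tumour cells included, do so after interferon gamma.

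The promoters of 5 genes are shown because the X and Y boxes are the elements through which CIITA acts on the set. They come from RefSeq (GRCh38.p14), run from 250 bases before to 50 after the transcript start and are read along the gene's strand. A promoter was found for 6 of the 8 genes. None is shown for CIITA and HLA-DRA, and the 2 HLA-DPA1 windows held neither motif. Capitals mark a core of the X box, ACNGATG, and a core of the Y box, ATTGG, each searched on both strands, where they read CATCNGT and CCAAT. The 2 cores share no overlap in these windows. The windows lie at chr6:32589799-32590098 (minus strand, HLA-DRB1), chr6:32953048-32953347 (minus, HLA-DMA), chr6:32940979-32941278 (minus, HLA-DMB), chr6:33075740-33076039 (plus, HLA-DPB1) and chr5:150412861-150413160 (minus, CD74).
HLA-DRB1: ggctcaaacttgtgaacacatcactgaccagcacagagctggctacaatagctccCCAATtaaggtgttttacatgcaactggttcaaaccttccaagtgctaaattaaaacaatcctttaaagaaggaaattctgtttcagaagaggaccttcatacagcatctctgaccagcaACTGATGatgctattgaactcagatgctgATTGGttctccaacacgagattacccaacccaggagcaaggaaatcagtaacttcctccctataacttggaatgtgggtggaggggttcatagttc
HLA-DMA: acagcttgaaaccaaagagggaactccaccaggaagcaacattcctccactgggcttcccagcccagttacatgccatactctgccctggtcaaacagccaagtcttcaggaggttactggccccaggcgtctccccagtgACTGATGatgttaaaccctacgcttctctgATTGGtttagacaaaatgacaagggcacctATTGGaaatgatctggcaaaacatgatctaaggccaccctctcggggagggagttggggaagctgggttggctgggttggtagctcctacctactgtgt
HLA-DMB: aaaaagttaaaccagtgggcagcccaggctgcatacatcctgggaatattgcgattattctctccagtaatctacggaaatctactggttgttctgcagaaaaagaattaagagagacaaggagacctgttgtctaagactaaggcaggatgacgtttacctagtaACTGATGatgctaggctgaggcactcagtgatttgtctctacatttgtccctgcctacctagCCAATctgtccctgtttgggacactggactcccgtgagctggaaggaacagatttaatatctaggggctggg
HLA-DPB1: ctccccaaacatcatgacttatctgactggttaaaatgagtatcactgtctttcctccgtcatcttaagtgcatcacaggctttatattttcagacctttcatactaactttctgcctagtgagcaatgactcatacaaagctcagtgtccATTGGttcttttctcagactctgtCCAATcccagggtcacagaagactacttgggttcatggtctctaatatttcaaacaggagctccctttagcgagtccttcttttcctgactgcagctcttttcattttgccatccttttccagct
CD74: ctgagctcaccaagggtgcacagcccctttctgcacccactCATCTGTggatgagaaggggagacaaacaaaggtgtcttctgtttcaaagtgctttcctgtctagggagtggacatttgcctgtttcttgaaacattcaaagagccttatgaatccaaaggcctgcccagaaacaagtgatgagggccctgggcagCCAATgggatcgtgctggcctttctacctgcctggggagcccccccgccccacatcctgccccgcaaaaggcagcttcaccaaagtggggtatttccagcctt

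HLA-DRB1, HLA-DMA and HLA-DMB held the same 7 letters of the X core, ACTGATG, on the gene's own strand, starting 75, 109 and 84 bases before the transcript start. In HLA-DRB1 the Y core followed 29 bases after the start of the X core, and in HLA-DMA 30 bases after it. An X core followed on the same strand by a Y core, with starts 20 to 40 bases apart, was found in 28 of 34796 promoter windows of the same length (0.0805%). Singly, the X core was in 7.68% of all windows and the Y core in 34.6%, on either strand. HLA-DPB1 held a Y core on each strand and no X core. CD74 held a Y core on the opposite strand, 53 bases before its start, and an X core on the opposite strand, 209 bases before it. HLA-DMB held a Y core on the opposite strand, 22 bases before its start. A match is a description of letters, and its absence says nothing of binding.

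Combination 9-1 was the deepest library, with 4467942 counts, and EZH2i 6-1 the shallowest, with 2208771. Levels below are CPM, the usual normalised read count relative to the library total after TMM scaling, and 1 count was worth between 0.219 and 0.435 CPM. A count of 0 allows a level of up to 3 counts, or 0.658 to 1.30 CPM by library, and such limits cover counting error only. The labels give count column 5 to a pair of p38i samples and column 6 to none; column 6 was taken as the remaining p38i library by elimination, and both are named here by their column. Column 6 stood apart, with a summed level of 680 CPM for 12 skeletal muscle genes, against at most 30.7 CPM in any library outside p38i. VIM, which encodes vimentin, is 1 of 6 genes listed as expressed in MDA-MB-231. It averaged 5177, 5439, 5178 and 5339 CPM in the combination, p38i, EZH2i and control groups. Of 5 genes listed as low or absent, ESR1, the oestrogen receptor, was between 5 and 33 counts. All 5 passed the filter on low counts. Their summed level was 74.4 to 111 CPM in combination, 65.9 to 95.7 CPM in p38i, 58.2 to 64.4 CPM in EZH2i and 65.1 to 123 CPM in control tumours. The identity of the line rests on the label. In bulk tumours fewer cells of a type and less RNA per cell cannot be told apart.

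CD74 and the HLA chains were lower in p38i tumours than in controls in these libraries, by 1.89 to 10.5 times, but the spread between tumours of 1 group was wide and none of the 7 genes tested passed the threshold of an adjusted p of 0.05 in edgeR's quasi-likelihood test. The group means of CD74, HLA-DRA, HLA-DRB1, HLA-DPA1, HLA-DPB1, HLA-DMB and CIITA stood in 1 order, p38i lowest, then EZH2i, then the combination, then control. HLA-DMA differed, with EZH2i lowest and p38i next. The 8 genes together took 0.00475% to 0.0330% of all counts in combination libraries, 0.00351% to 0.00892% in p38i libraries, 0.00550% to 0.0224% in EZH2i libraries and 0.0197% to 0.0525% in control libraries.

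**Figure D1:**
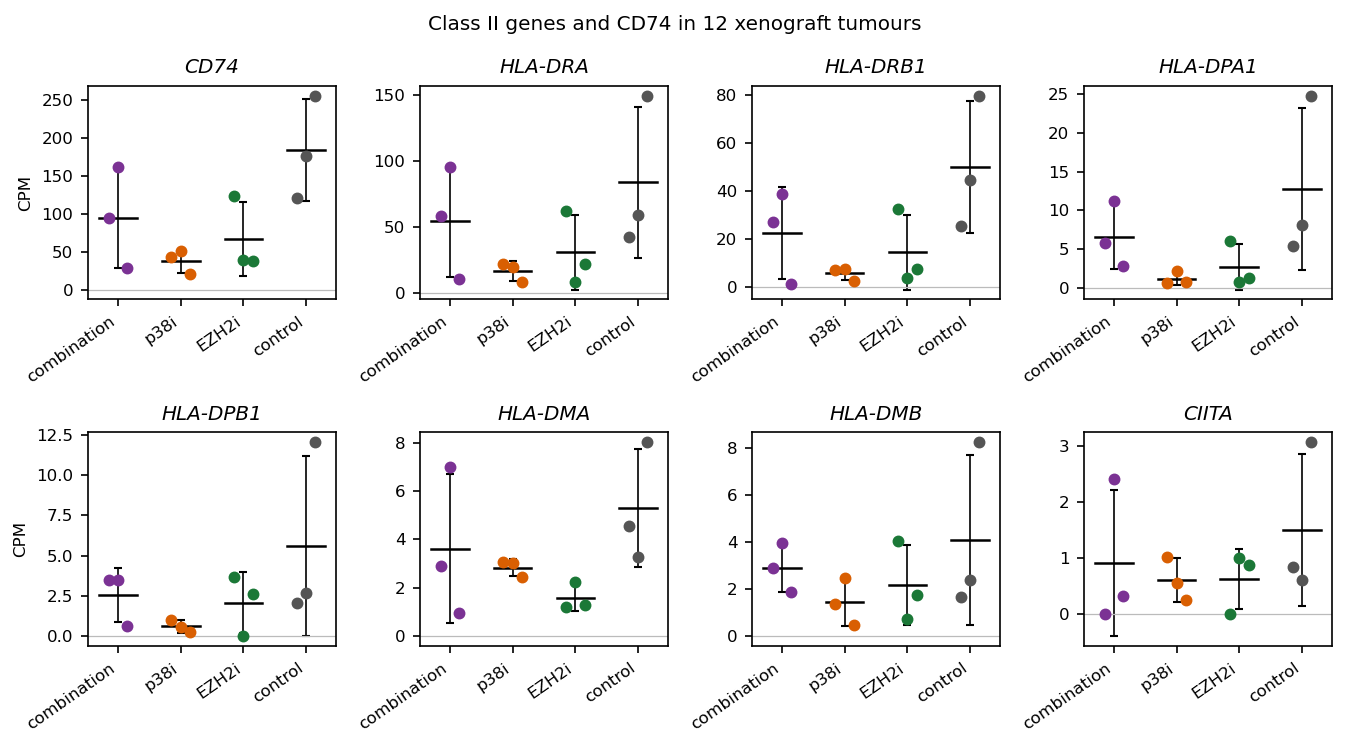
Level of each gene in CPM (linear axis, own scale per panel) in the combination, p38i, EZH2i and control groups. Each point is 1 tumour, the bar is the mean and the whisker 1 SD of 3 tumours. The highest point of every panel is control 2-1, and CD74 in the 3 p38i tumours, 20.7 to 51.1 CPM, lies below all controls.

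CD74 was the most counted gene of the set, with 4059 counts over the 12 libraries. It stood at 94.8, 162 and 28.1 CPM in combination tumours 8-1, 9-1 and 9-2, at 42.8, 51.1 and 20.7 CPM in p38i tumours 3-3, column 5 and column 6, at 123, 38.6 and 37.8 CPM in EZH2i tumours 5-3, 5-4 and 6-1, and at 121, 176 and 255 CPM in control tumours 1-1, 1-3 and 2-1. All p38i tumours were below all controls, whereas 1 combination tumour and 1 EZH2i tumour reached the control range. The means were 94.9 ± 66.8 CPM in the combination, 38.2 ± 15.7 CPM with p38i, 66.5 ± 49.0 CPM with EZH2i and 184 ± 67.6 CPM in controls (SD, n = 3 each).

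HLA-DRA, the alpha chain of HLA-DR, was the most counted HLA class II gene. It stood at 58.1, 94.9 and 10.3 CPM in the combination tumours, 21.7, 19.2 and 7.79 CPM in the p38i tumours, 62.0, 7.92 and 21.3 CPM in the EZH2i tumours and 42.3, 58.9 and 149 CPM in the controls, in the same order of tumours. The p38i tumours were again below every control, and the high tumours of the other treated groups were those in which CD74 was high. HLA-DRB1, the beta chain, stood at 26.8, 38.8 and 1.25 CPM in the combination tumours, 6.79, 7.14 and 2.44 CPM in the p38i tumours, 32.4, 3.47 and 7.39 CPM in the EZH2i tumours and 25.3, 44.6 and 79.8 CPM in the controls. Its range was the widest of the genes with no library at 0, 63.8 times between combination 9-2 and control 2-1. HLA-DRB1 shares long stretches with other DRB genes and pseudogenes, so its counts also depend on how such reads were assigned.

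The HLA-DP chains were far less counted. HLA-DPA1 stood at 5.84, 11.2 and 2.81 CPM in the combination tumours, 0.679, 2.20 and 0.731 CPM in the p38i tumours, 6.07, 0.743 and 1.30 CPM in the EZH2i tumours and 5.39, 8.07 and 24.8 CPM in the controls. HLA-DPB1 stood at 3.50, 3.51 and 0.625 CPM in the combination tumours, 1.02, 0.550 and 0.244 CPM in the p38i tumours, 3.64, 0 and 2.61 CPM in the EZH2i tumours and 2.07, 2.69 and 12.0 CPM in the controls. The p38i tumours held 2 to 8 counts of HLA-DPA1 and 1 to 3 counts of HLA-DPB1, so their levels were near the floor. The annotation places HLA-DPA1 and HLA-DPB1 on opposite strands with overlapping spans. Since the use of strand in counting was not given in the sources used here, reads in the overlap could belong to either.

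The HLA-DM genes, which edit the peptide, had the lowest coefficients of variation of the set, given further on. HLA-DMA stood at 2.92, 7.02 and 0.938 CPM in the combination tumours, 3.06, 3.02 and 2.44 CPM in the p38i tumours, 1.21, 2.23 and 1.30 CPM in the EZH2i tumours and 4.56, 3.29 and 8.03 CPM in the controls. Both the p38i and the EZH2i tumours were below all controls for this gene. HLA-DMB stood at 2.92, 3.95 and 1.88 CPM in the combination tumours, 1.36, 2.47 and 0.487 CPM in the p38i tumours, 4.05, 0.743 and 1.74 CPM in the EZH2i tumours and 1.66, 2.39 and 8.26 CPM in the controls. Its groups overlapped in every comparison with control. Both genes overlap another annotated locus on their own strand, and HLA-DMA also overlaps BRD2 on the other strand.

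CIITA, the coactivator, had 0 to 13 counts in a library and 41 in all. It stood at 0, 2.41 and 0.313 CPM in the combination tumours, 1.02, 0.550 and 0.244 CPM in the p38i tumours, 0, 0.990 and 0.870 CPM in the EZH2i tumours and 0.829, 0.598 and 3.07 CPM in the controls. The counts of 0 allow up to 0.875 CPM in combination 8-1 and 1.21 CPM in EZH2i 5-3. The groups overlapped, and a difference in CIITA was not detectable at this depth. In the same 2 tumours CD74 was at 94.8 and 123 CPM.

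The comparison of p38i with control asked what inhibition of p38 did to the set. All 7 genes tested had negative log2 fold changes, with a median of -2.39 beside -0.0013 over all 12514 genes. The fold change was -2.28 (SE 0.683) for CD74, with an edgeR adjusted p of 0.119. It was -3.39 (SE 0.825) for HLA-DPA1, with an edgeR adjusted p of 0.0574, the lowest of the set. HLA-DPB1 stood at -3.28 (SE 1.04, edgeR adjusted p = 0.116), HLA-DRB1 at -3.23 (SE 1.08, edgeR adjusted p = 0.156) and HLA-DRA at -2.39 (SE 0.926, edgeR adjusted p = 0.212). The HLA-DM genes had the smallest differences, -1.58 (SE 0.723, edgeR adjusted p = 0.261) for HLA-DMB and -0.92 (SE 0.566, edgeR adjusted p = 0.412) for HLA-DMA. edgeR thus called 0 of the 7 genes lower, where 1.11% of all genes were called lower. At an unadjusted p under 0.05, 6 of 7 were lower, beside 9.31% of all genes. In 6 of 7 genes, HLA-DMB being the exception, every p38i tumour was below every control, beside 12.5% of all genes.

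Other tests moved this count. DESeq2 called CD74 (adjusted p = 0.0279) and HLA-DPA1 (adjusted p = 0.00224) lower, 2 of 7, where it called 2.81% of all genes lower. A fit of the p38i and control libraries alone called CD74 (edgeR adjusted p = 0.0405) and HLA-DRB1 (edgeR adjusted p = 0.0351), 2 of the 5 genes of the set that it tested, where 1.28% of genes were called lower. limma-voom called none, with a lowest adjusted p of 0.114. Without p38i column 6, the library with muscle RNA, the median log2 fold change was -2.04. edgeR then called 0 of 7, in a fit that called only 1 of 12831 genes lower. Without control 2-1, the library highest for all 8 genes, the median was -1.96. edgeR called 0 of 7 there too, in a fit that called 319 of 12852 genes lower.

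**Figure D2:**
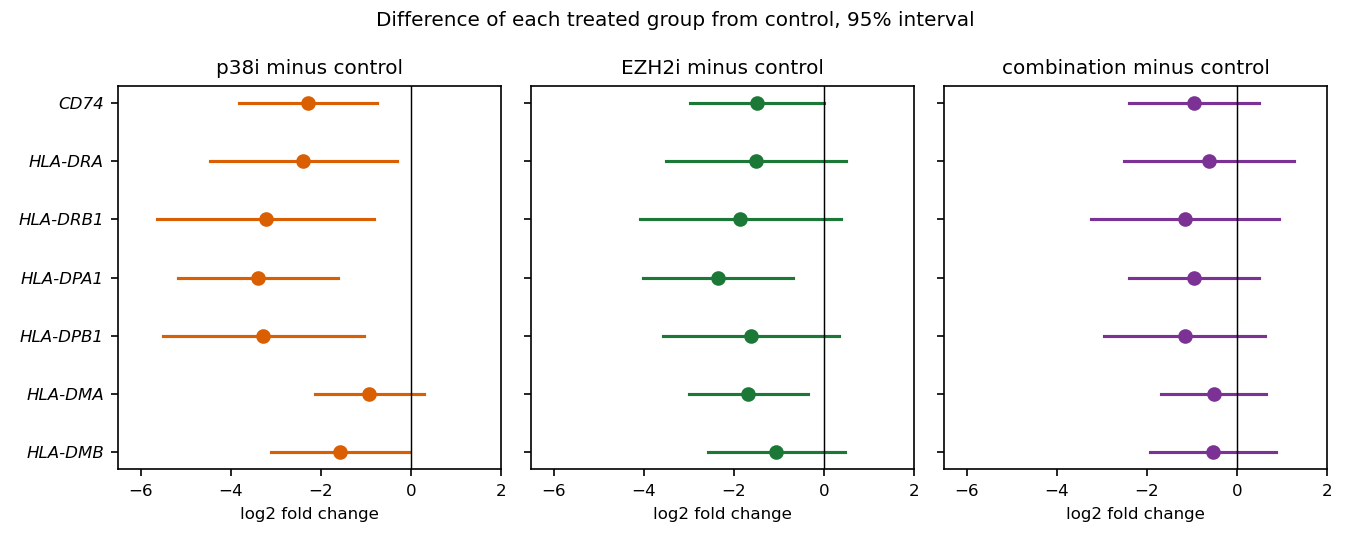
Log2 fold change of each tested gene against control (horizontal axis) for p38i, EZH2i and the combination, with 95% intervals from the edgeR fit. With p38i the intervals of 6 genes lie below 0 and that of HLA-DMA crosses it, while with the combination all 7 cross 0.

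With EZH2i the differences from control were of the same sign. The 3 comparisons with control use the same control libraries, so their values are not independent of each other. The median log2 fold change was -1.62, from -2.34 (SE 0.774) for HLA-DPA1 to -1.06 (SE 0.715) for HLA-DMB. The CD74 difference was -1.48 (SE 0.663). edgeR called 0 of 7 genes lower, beside 0.128% of all genes, and the lowest adjusted p was 0.198. At an unadjusted p under 0.05, HLA-DPA1 and HLA-DMA were lower, 2 of 7 beside 7.28% of all genes. HLA-DMA was the 1 gene of 7 whose EZH2i tumours all lay below all controls, beside 8.09% of all genes. DESeq2 and limma-voom also called 0, with lowest adjusted p of 0.0898 and 0.218. Single libraries moved these values. Without EZH2i 5-3 the median was -2.41. Without control 2-1 the median was -1.17, HLA-DPB1 stood at -0.34 and HLA-DMB at 0.0015. edgeR called 0 of 7 in both fits, where it called 28 of 12818 and 83 of 12852 genes lower.

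The combination lay closer to control. The median log2 fold change was -0.95, and the 7 values ran from -1.16 (SE 0.835) for HLA-DPB1 to -0.51 (SE 0.545) for HLA-DMA. edgeR called 0 of 7 genes lower, beside 0.00799% of all genes, and the edgeR adjusted p ran from 0.476 to 0.737. None was lower at an unadjusted p under 0.05, beside 8.67% of all genes, and none had groups that did not overlap, beside 11.2%. DESeq2 and limma-voom called 0. The direction rested on control 2-1 for 3 genes. Without that library HLA-DRA, HLA-DPB1 and HLA-DMB were above control, by 0.12, 0.11 and 0.52 on the log2 scale. The median was then -0.0083, and 4 of 7 genes stayed below control. CD74 stayed at -0.52 or lower and HLA-DRB1 at -0.61 or lower whichever library was left out. The interval for CD74, -2.39 to 0.49, spans both a fall and a small rise.

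Set against each single agent, the combination had higher means of all 7 genes, and edgeR called none of the differences. Against p38i the log2 fold changes ran from 0.41 (SE 0.573) for HLA-DMA to 2.44 (SE 0.845) for HLA-DPA1, with a median of 1.78. edgeR called 0 of 7, beside 0% of all genes, as did DESeq2 and limma-voom. HLA-DPA1 was higher at an unadjusted p under 0.05, 1 of 7 beside 3.54% of all genes, with a 95% interval of 0.62 to 4.26, and every combination tumour was above every p38i tumour for this gene alone, 1 of 7 beside 6.78%. Against EZH2i the values ran from 0.46 (SE 0.966) for HLA-DPB1 to 1.40 (SE 0.793) for HLA-DPA1, with a median of 0.70. edgeR, DESeq2 and limma-voom called 0 of 7, beside 0% of all genes in edgeR. None was higher at an unadjusted p under 0.05, beside 1.45% of all genes, and none had groups that did not overlap, beside 3.34%. EZH2i and p38i were not compared with each other.

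Whether the combination departed from the sum of the single agents was tested by the interaction, the combination minus p38i minus EZH2i plus control on the log2 scale. All 7 values were positive, from 2.09 (SE 0.847) for HLA-DMA to 4.79 (SE 1.15) for HLA-DPA1, with a median of 3.28 beside -0.0063 for all genes. The CD74 value was 2.81 (SE 0.945), with an edgeR adjusted p of 0.247. edgeR called 0 of 7 higher, beside 0.016% of all genes, with a lowest adjusted p of 0.113 for HLA-DPA1. At an unadjusted p under 0.05, 6 of 7 were higher, beside 6.2% of all genes. DESeq2 called HLA-DPA1 (adjusted p = 0.00531), 1 of 7 where it called 1.03% of all genes higher, and limma-voom called 0. Without EZH2i 5-3, edgeR called HLA-DPA1 (adjusted p = 0.0493), 1 of 7 where it called 28 of 12818 genes higher. Without control 2-1 the median was 2.50 and edgeR called 0 of 7, where it called 8 of 12852 genes higher.

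The set varied widely between tumours of 1 group. The biological coefficient of variation, the relative spread of a gene beyond counting error in the edgeR fit, had a median of 0.600 over the 7 genes and of 0.205 over all genes. It was 0.842 for HLA-DRB1, higher than in 99.7% of all genes, 0.720 for HLA-DRA and 0.543 for CD74. HLA-DMA had the lowest value of the set, 0.423, at the 93.4th percentile. These percentiles were taken over genes of all levels. The 7 genes had a lower median level than all genes, 2.06 against 4.71 log2 CPM, and no percentile among genes of like level was computed. Within the combination group HLA-DRB1 differed by 31.0 times between tumours 9-1 and 9-2, whereas within p38i it differed by 2.93 times.

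**Figure D3:**
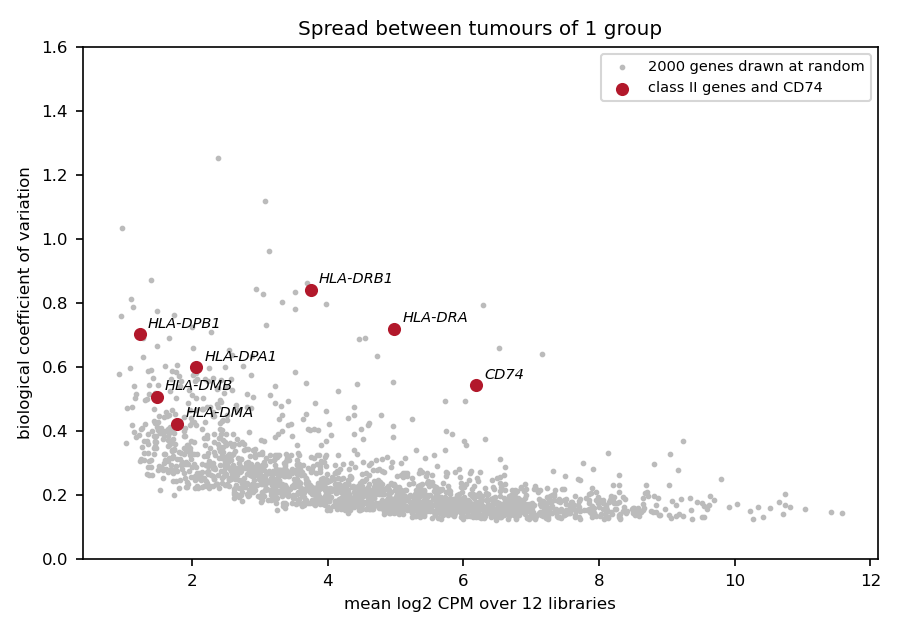
Biological coefficient of variation (vertical axis) against mean log2 CPM over 12 libraries (horizontal axis) for the 7 class II genes tested, in red, and 2000 genes drawn at random, in grey. CD74, HLA-DRA and HLA-DRB1 lie above most genes of like level.

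The genes of the set moved together from tumour to tumour. Over the 12 libraries, log2 CPM of CD74 was correlated with that of HLA-DRB1 (r = 0.971, rho = 0.944), HLA-DRA (r = 0.952, rho = 0.923), HLA-DPA1 (r = 0.916, rho = 0.860), HLA-DPB1 (r = 0.836, rho = 0.790), HLA-DMB (r = 0.817, rho = 0.748) and HLA-DMA (r = 0.661, rho = 0.699). Permutation p-values adjusted over these 6 relations ran from 6e-05 to 0.0203 for r and from 0.00015 to 0.0145 for rho. Without control 2-1 and p38i column 6, the libraries farthest from the CD74 median, r was 0.963 for HLA-DRB1, 0.919 for HLA-DRA, 0.871 for HLA-DPA1, 0.724 for HLA-DPB1, 0.649 for HLA-DMB and 0.605 for HLA-DMA. The last pair, with 10 libraries, no longer passed (permutation adjusted p = 0.0526 and 0.0687). With group means removed and values permuted within groups, r was 0.962, 0.943, 0.864, 0.720, 0.793 and 0.633 in that order of genes, and HLA-DMA alone did not pass (permutation adjusted p = 0.137).

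CD74 left a gap between 51.1 CPM in p38i column 5 and 94.8 CPM in combination 8-1, with 6 libraries on each side. The lower side held the 3 p38i tumours, EZH2i 5-4 and 6-1 and combination 9-2, and the upper side held the 3 controls, EZH2i 5-3 and combination 8-1 and 9-1. Among the 6 upper libraries r with CD74 was 0.953 for HLA-DRB1 (exact permutation adjusted p = 0.0333) and 0.910 for HLA-DPA1 (exact permutation adjusted p = 0.0375), and between 0.630 and 0.794 for the other genes, which did not pass. Among the 6 lower libraries r ran from 0.135 for HLA-DPA1 to 0.760 for HLA-DRB1 and none passed. Since the sides were set by CD74 itself, its range on each is narrower by construction, and r on a side cannot be set against r over all 12 libraries. These correlations share depth and scaling, and levels near the floor add counting error to the lower side.

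**Figure D4:**
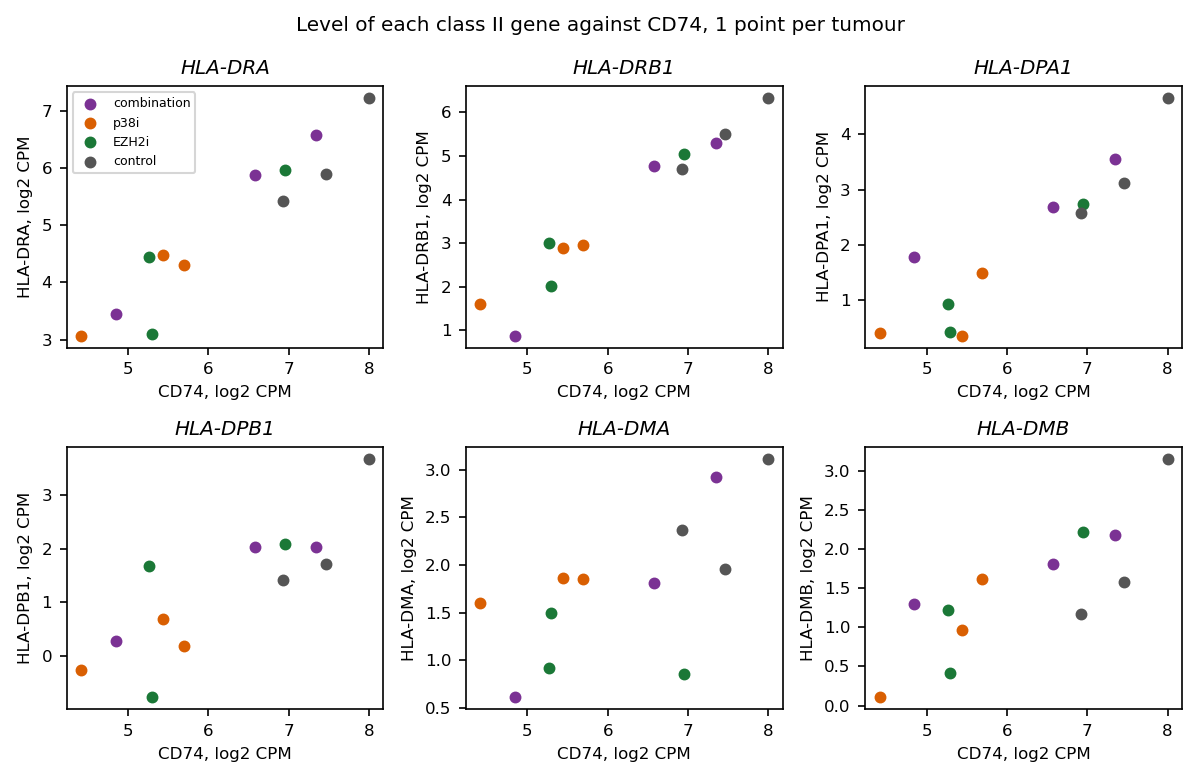
Log2 CPM of each class II gene (vertical axes) against log2 CPM of CD74 (horizontal axes), 1 point per tumour, coloured by group. Control 2-1 is at the upper right of every panel, and the HLA-DRB1 panel has the closest relation, r = 0.971.

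By the same measure, the genes outside the set most like CD74 over the 12 libraries were GJB2 (r = 0.950), CUX1 (0.946), ARF6 (0.942), ESYT2 (0.935), STX1A (0.932), PLXNA4 (0.930), OLFML2A (0.930), TTC12 (0.927), LOC100506457 (0.926) and MYLK (0.920). Those most like HLA-DRA were SERPINA1 (0.946), IMMP2L (0.930), GJB2 (0.927), BID (0.920) and RNF141 (0.919). They are the highest of all genes tested and are given as a description, with no test. GJB2 encodes the gap junction protein connexin 26 and SERPINA1 the protease inhibitor alpha-1 antitrypsin.

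The other class II genes had few counts. None of 11, among them the HLA-DQ and HLA-DO chains and further DRB genes, passed the filter on low counts. Their summed level was 3.50 to 5.04 CPM in combination tumours, 1.22 to 5.22 CPM in p38i tumours, 1.24 to 4.86 CPM in EZH2i tumours and 2.90 to 13.2 CPM in controls. HLA-DRB3 and HLA-DRB4 were at 0 in all libraries. DRB3 and DRB4 occur only on some human haplotypes. Whether these cells carry them, and whether the mapping could count them, was not tested.

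The transcription factors of the X and Y boxes were not called. All 7 (RFX5, RFXANK, RFXAP, NFYA, NFYB, NFYC and CREB1) were tested, and edgeR called 0 in any comparison, with 0 at an unadjusted p under 0.05 in the p38i, EZH2i and combination comparisons with control. Their median log2 fold change with p38i was 0.12. CREB1, which binds the X2 part of the X box, stood at -0.14 with p38i (SE 0.149), and NFYA and NFYB, subunits of NF-Y, at 0.12 (SE 0.268) and 0.22 (SE 0.224).

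Genes of the interferon gamma route, which switches CIITA on, were tested for 9 of 11 members and edgeR called 0 in any comparison. With p38i the median was 0.20, and 2 of 9 had an unadjusted p under 0.05, beside 18.4% of all genes in either direction. IFNGR2, a receptor chain, stood at 0.38 (SE 0.18) and JAK1, the kinase bound to the other chain, at 0.01 (SE 0.154). JAK2, the kinase bound to IFNGR2 and named after its values were seen, stood at -0.70 (SE 0.211, edgeR adjusted p = 0.0999). Without control 2-1 it passed (edgeR adjusted p = 0.0475). Among 15 further genes that interferon gamma induces, 8 were tested and edgeR called 0, with 2 at an unadjusted p under 0.05 with p38i, beside the same 18.4%. Their median with p38i was 0.45; the guanylate-binding protein genes GBP2 and GBP1 stood at -0.52 (SE 0.205) and 0.73 (SE 0.293), and WARS, the tryptophan tRNA ligase, at 0.38 (SE 0.235). Of 18 genes of the type I interferon response, 17 were tested and edgeR called 0, with 4 at an unadjusted p under 0.05 with p38i, beside 18.4% of all genes, and a median of 0.21. IFI27 stood at -0.55 (SE 0.278), IFIT3 at 0.58 (SE 0.262) and STAT2 at -0.63 (SE 0.208). IFIT1 and IFIH1, named after their values were seen, stood at 0.97 (SE 0.315) and 0.84 (SE 0.24).

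MHC class I genes, which show peptides of the cell's own proteins to CD8+ T cells, were the nearest other presentation genes. Of 16 genes 14 were tested and edgeR called 0 in any comparison, with 2 at an unadjusted p under 0.05 with p38i, beside 18.4% of all genes. The median with p38i was 0.05. B2M, the shared light chain, stood at -0.39 (SE 0.176) and HLA-B, a heavy chain, at -0.12 (SE 0.239). PSMB9, a proteasome subunit named after its values were seen, stood at 0.72 (SE 0.294).

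Of the genes that cut the invariant chain and load peptide, 10 of 11 were tested, and 5 of them had negative log2 fold changes with p38i. There edgeR called CTSD alone, 1 of 10 lower, beside 1.11% of all genes. CTSD encodes the endosomal protease cathepsin D. It stood at 270, 212 and 200 CPM in the p38i tumours and at 687, 545 and 364 CPM in controls. Every p38i tumour was thus below every control, beside 12.5% of all genes. CTSD fell by 1.23 on the log2 scale with p38i (SE 0.238, edgeR adjusted p = 0.0297). The call was lost when any of 5 libraries was left out, with an edgeR adjusted p of up to 0.123. CTSB, another endosomal protease, stood at -0.56 (SE 0.178, edgeR adjusted p = 0.109), CTSZ at -0.11 (SE 0.163) and CTSL at -0.27 (SE 0.323). CTSS, which makes the last cut of the invariant chain, was tested and not called. IFI30, named after its values were seen, stood at 1.28 with p38i (SE 0.379, edgeR adjusted p = 0.0959). Its level was 7.97 to 10.5 CPM in p38i tumours and 1.66 to 5.98 CPM in controls.

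Of 10 genes for class II turnover and for partners of CD74 at the cell surface, 5 were tested. CXCR4, a chemokine receptor that pairs with CD74, rose with p38i and with EZH2i. It stood at 101, 107 and 233 CPM in combination tumours and 208, 181 and 189 CPM in p38i tumours. In EZH2i tumours it stood at 181, 235 and 187 CPM, and in controls at 66.3, 59.2 and 67.0 CPM. The log2 fold change of CXCR4 was 1.58 with p38i (SE 0.261, edgeR adjusted p = 0.0164) and 1.65 with EZH2i (SE 0.262, edgeR adjusted p = 0.0355). With the combination it was 1.19 (SE 0.260, edgeR adjusted p = 0.133) and was not called. With p38i and with EZH2i CXCR4 was the 1 gene called of 5. The share of all genes called higher in the fit that gave these calls was not counted. In a separate fit without its robust option, edgeR called 74 of 12514 genes higher with p38i and 9 with EZH2i. Each CXCR4 call was lost on leaving out any of 5 libraries, with an edgeR adjusted p of up to 0.103 for p38i and 0.214 for EZH2i. CD44, the signalling partner of CD74, stood at 0.54 with p38i (SE 0.181), AP1M1, a clathrin adaptor, at 0.53 (SE 0.254) and MARCH8, a ubiquitin ligase that removes class II, at -0.38 (SE 0.18). MIF, the ligand of CD74, was listed at 0 in all libraries. How reads were assigned to genes was not given in the sources used here, so this 0 was not read as absence of expression.

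Markers of leukocytes that carry class II were checked beside these values. Of 20 genes, 5 passed the filter (PTPRC, CD68, CSF1R, AIF1 and LAPTM5), and edgeR called 0 in any comparison, with 2 at an unadjusted p under 0.05 with p38i, beside 18.4% of all genes. The summed level of the list was 63.1 to 76.9 CPM in combination tumours, 45.1 to 82.2 CPM in p38i tumours, 58.7 to 74.5 CPM in EZH2i tumours and 50.2 to 75.8 CPM in controls, so the groups overlapped. The B cell gene CD79B was at 0 in all libraries, and TYROBP, CD86, CD80 and SPI1 had at most 2 counts in a library. PTPRC, the common leukocyte antigen CD45, stood at 0.69 with p38i (SE 0.302), LAPTM5, a lysosomal protein of blood cells, at -0.61 (SE 0.272) and CD68, a macrophage lysosomal protein, at 0.12 (SE 0.243). The mice supply host cells, and the labels record no removal of mouse reads; what such reads add to the human rows was not tested. Among stroma markers, PDGFRB of fibroblasts and pericytes fell by 2.03 on the log2 scale with p38i (SE 0.453, edgeR adjusted p = 0.0433), and TIE1 of endothelium rose by 3.36 (SE 0.669, edgeR adjusted p = 0.0298). PDGFRB was 1 of 6 fibroblast genes tested, beside 1.11% of all genes called lower with p38i. TIE1 was 1 of 5 endothelial genes tested, and no other gene of either list was called with p38i. The share of all genes called higher in the fit that called TIE1 was not counted. In a separate fit without its robust option, edgeR called 74 of 12514 genes higher with p38i. Leaving out 1 library ended the PDGFRB call in 9 of 12 fits and the TIE1 call in 5 of 12. limma-voom did not call PDGFRB (adjusted p = 0.102). Nor did edgeR without the filter on low counts (adjusted p = 0.0622) or with p38i and control libraries alone (adjusted p = 0.100). DESeq2 gave TIE1 no adjusted p and so did not call it. The part of PDGFRB and TIE1 in the class II values was not tested.

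**Figure D5:**
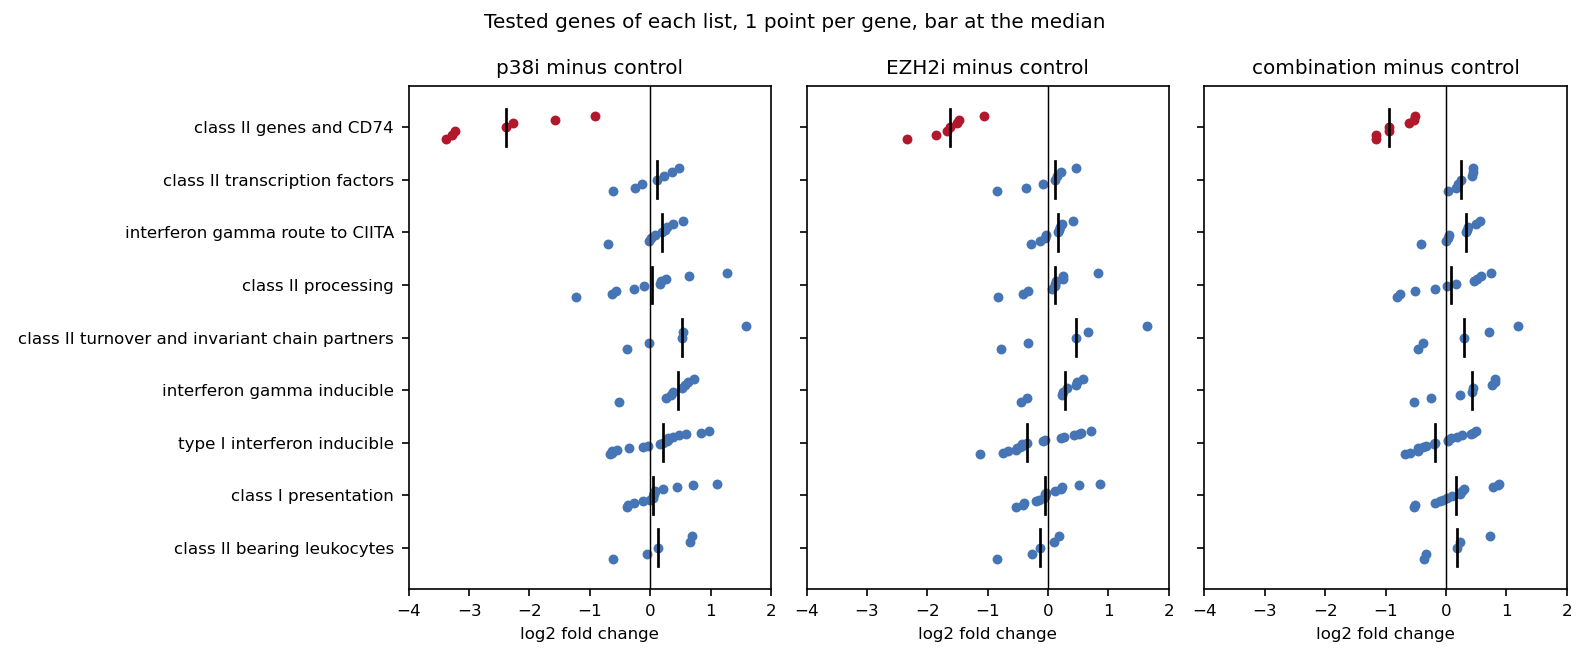
Log2 fold change against control (horizontal axis) of every tested gene of 9 lists (rows), for p38i, EZH2i and the combination; 1 point per gene, black bar at the median. All 7 class II genes lie below 0 in each panel, with medians of -2.39, -1.62 and -0.95, while the medians of the other 8 lists lie between -0.34, for type I interferon genes with EZH2i, and 0.53, for class II turnover and partners with p38i.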

How the data were processed

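RNA from 12 MDA-MB-231 tumours was sequenced, 3 per group. Libraries were built from 1.3 µg of total RNA, per the labels' protocols, which list SMARTer as well as QuantSeq without saying which applies. Per the submitters' processing notes, reads were handled with Trim Galore 0.5.0, STAR 2.6.0 and the build hg19; how reads were assigned to genes and whether strand was used were not given in the sources used here. The authors deposited raw counts per gene symbol. Lines without a gene name (3, with 0 counts) were dropped. Columns were joined to tumours by the column number in each description.

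From these counts, levels and tests were computed with edgeR 4.0.16 in R 4.3.3: filterByExpr, TMM scaling, 1 robust quasi-likelihood fit with 1 term per group over all 12 libraries, two-sided F tests, and Benjamini-Hochberg adjustment over the 12514 genes tested with a threshold of 0.05. DESeq2 1.42.0, limma-voom (limma 3.58.1), other scalings and filters, fits of the compared groups alone and leaving out each library were alternatives. Correlations used log2 CPM with a prior count of 2, two-sided, with 100000 permutations or, within 6 libraries, all of them. The code was tested on simulated data. The members and the gene lists were chosen with earlier results of these data known. The text names all members, each called gene of a list and at most 3 further genes of it with the highest mean CPM, and the 10 and 5 genes most correlated with CD74 and HLA-DRA. Some genes that this rule gives are not reported here. Promoters are of GRCh38.p14, not of the authors' build.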

Additional observations from a re-analysis of the deposited data

How the results depend on the processing

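In the p38i comparison DESeq2 called 2 members lower, beside 2.81% of all genes. The fit of p38i and control libraries alone called 2, beside 1.28% of genes. Leaving out 1 library gave 0 to 2. Without EZH2i 5-3 edgeR called HLA-DPA1, where it called 140 of 12818 genes lower. Without EZH2i 5-4 it called HLA-DPA1 and HLA-DPB1, where it called 237 of 12856 genes lower. In the interaction DESeq2 called 1, beside 1.03% of all genes, and leaving out 1 library gave 0 to 1. No other setting called a member in any comparison. All 135 alternative values with p38i stayed negative. Of 134 with EZH2i and 136 with the combination, 133 each did. The exceptions came without control 2-1, and leaving out 1 library gave -1.86 to 0.0015 for HLA-DMB with EZH2i and, with the combination, -1.28 to 0.12 for HLA-DRA, -1.51 to 0.11 for HLA-DPB1 and -0.86 to 0.52 for HLA-DMB. With p38i the same ranges crossed 0 for NFYA (-0.00025 to 0.40), JAK1 (-0.12 to 0.11), CTSZ (-0.17 to 0.0086), CTSL (-0.46 to 0.26), HLA-B (-0.25 to 0.043) and CD68 (-0.014 to 0.29). The cause was not tested.

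The relations with CD74 kept their sign. Without the 2 farthest libraries r was 0.605 for HLA-DMA and 0.649 for HLA-DMB, and with group means removed 0.633 for HLA-DMA; these did not pass. The split at the CD74 gap was chosen after seeing the data. In the 6 lower libraries r was 0.702, 0.760, 0.135, 0.249, 0.370 and 0.636 for HLA-DRA, HLA-DRB1, HLA-DPA1, HLA-DPB1, HLA-DMA and HLA-DMB, and in the 6 upper ones 0.794, 0.700, 0.630 and 0.661 for HLA-DRA, HLA-DPB1, HLA-DMA and HLA-DMB; these did not pass with 6 libraries. The checks of named genes outside the set were also added after seeing the data.

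Without the filter on low counts, where 21125 genes were tested, CIITA stood at -1.42 with p38i, -1.23 with EZH2i and -0.65 with the combination (edgeR adjusted p = 0.638, 0.723 and 0.800). No paired analysis was possible because the labels give no replicate numbers shared across groups. Few counts limit CIITA, the HLA-DP genes and the HLA-DM genes, and 3 libraries per group limit all comparisons.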
